A study of Solanum lycopersicum and Solanum pennellii with 32 samples.

Results

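The ethylene receptors of tomato are a family of 7 genes, and their transcripts were followed here in roots by position and phosphate supply. The members were matched by gene ID before the first dot: ETR1 (Solyc12g011330, chromosome 12), ETR2 (Solyc07g056580, chromosome 7), NR (Solyc09g075440, chromosome 9), ETR4 (Solyc06g053710, chromosome 6), ETR5 (Solyc11g006180, chromosome 11), ETR6 (Solyc09g089610, chromosome 9) and ETR7 (Solyc05g055070, chromosome 5). All 7 IDs were found among the 34843 genes of each deposited table. All 7 also passed the filter on low counts in the 3 reported fits, those of M82, of Pennellii and of both species.

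Roots came from the wild relative Solanum pennellii, cv LA0716 in the labels and called Pennellii here, and from cultivated tomato, Solanum lycopersicum cv M82. In each species the groups were root tips at limiting phosphate, root tips at sufficient phosphate, root midsections at limiting phosphate and root midsections at sufficient phosphate. Each of the 8 groups had 4 biological replicates, each replicate holding material of 30 to 40 seedlings aged 8 to 10 days that had grown at 25 degrees Celsius with 12 hours of light. A tip sample was a segment of 1 cm, and a midsection sample was about 2 cm. All groups carried a 35S:TRAP construct, that is, a tagged ribosomal protein driven by a viral promoter active in most plant cells, so no group lacked it. The labels give total RNA as the molecule, and values are read that way here. The libraries are BrAD-seq libraries, made from transcript ends on the 3′ side, so counts do not scale with transcript length and levels of different receptors are compared as CPM, that is, counts scaled to the size of each library. In such bulk samples, fewer cells of a type and less RNA per cell cannot be told apart. The position labels were not checked against marker genes.

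Ethylene receptors sit mainly in the membrane of the endoplasmic reticulum and are negative regulators. Without ethylene they keep the kinase CTR1 active, which holds back EIN2 and the EIN3-type transcription factors, and binding of ethylene switches them off. ETR1, ETR2 and NR belong to subfamily I, which keeps the parts of a histidine kinase, and ETR4, ETR5, ETR6 and ETR7 belong to subfamily II, in which that domain is degenerate. In roots, ethylene is known to restrain elongation and to promote root hairs, both of which also change when phosphate is short.

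The 16 Pennellii libraries held 6225 to 13124725 counts, and the 16 M82 libraries held 1084652 to 34103546 counts. In Pennellii, 2 libraries, tip at limiting phosphate replicate 3 and midsection at sufficient phosphate replicate 1, were identical in all 34843 genes, so the group of their values is in doubt, and a further 3 held fewer than 100000 counts. The reported Pennellii fit used the other 11 libraries, with 137511 to 13124725 counts: 3 of limiting tips, 2 of sufficient tips, 3 of limiting midsections and 3 of sufficient midsections. Biological variation between replicates, as the coefficient that edgeR estimates over all genes, came to 1.18 in Pennellii and 0.69 in M82, so the M82 values are the more precise ones. Estimated counts of NR were fractional in 6 of 16 M82 libraries, so its level is less certain than that of the other 6 receptors, which held whole numbers in M82.

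In M82 roots NR, ETR1 and ETR7 made up most of the receptor transcripts, and ETR6 was the scarcest. Over the 16 libraries NR averaged 63.5 ± 20.7 CPM, ETR1 55.4 ± 19.5, ETR7 45.4 ± 12.2, ETR5 36.3 ± 18.1, ETR4 19.1 ± 13.8, ETR2 11.7 ± 8.7 and ETR6 4.26 ± 4.62 (SD, n = 16). NR was the highest receptor in 9 libraries, ETR1 in 6 and ETR7 in 1. ETR6 was the lowest in 13 of 16. Neighbours in this order overlapped in their ranges throughout, so the order holds for means only. The order also differed between groups: ETR4 ranked above ETR2 in tips and below it in midsections, and ETR1 was highest on average in midsections at sufficient phosphate. The summed level of the 7 receptors was 239 ± 35.4 CPM in limiting tips and 240 ± 103 in sufficient tips, 226 ± 11.7 in limiting midsections and 238 ± 28.3 in sufficient midsections (SD, n = 4 each). The widest spread was that of sufficient tips, where replicate 4 reached 387 CPM. That library held 1406650 counts and the fewest genes with a count of any M82 library, 14174.

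**Figure D1:**
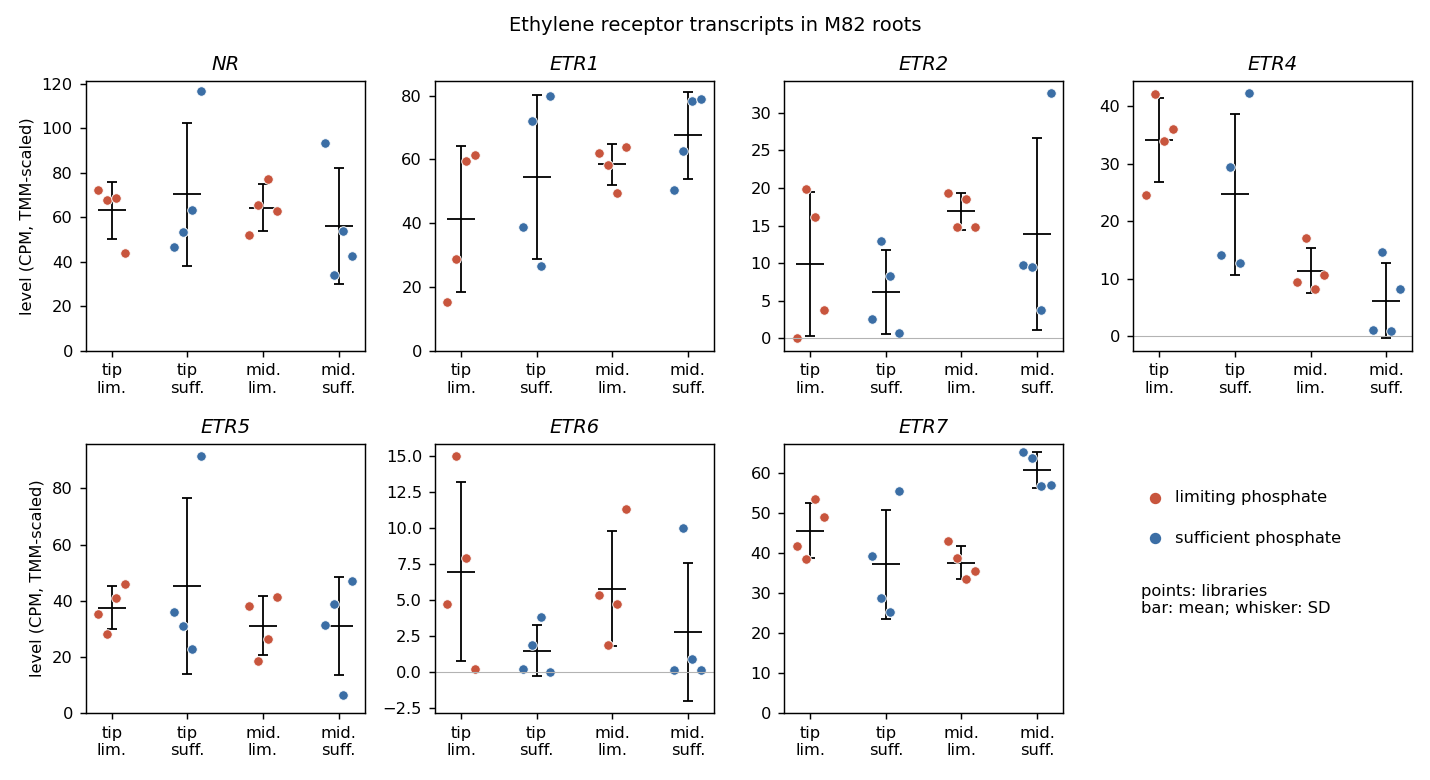
Levels of the 7 receptors in the 16 M82 libraries, in CPM on linear axes that differ between panels. Each point is a library, each bar the group mean and each whisker the SD (n = 4); ETR4 tips lie between 12.7 and 42.3 CPM and ETR4 midsections between 0.931 and 17.1 CPM.

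Of subfamily I, NR, the gene of the Never ripe mutant, encodes a receptor without the receiver domain, and its dominant mutant allele blocks ripening. NR stood at 72.1, 67.9, 68.7 and 43.8 CPM in limiting tips, against 46.8, 53.6, 63.5 and 117 CPM in sufficient tips. In midsections it stood at 52.1, 65.4, 77.4 and 62.9 CPM at limiting phosphate, against 93.6, 34.1, 54.0 and 42.7 CPM at sufficient phosphate. All 4 groups overlapped, and the highest NR value was that of sufficient tip replicate 4.

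ETR1, the tomato counterpart of the first ethylene receptor cloned in Arabidopsis, had 15.2, 28.8, 59.6 and 61.4 CPM in limiting tips and 38.7, 72.2, 26.7 and 79.8 CPM in sufficient tips. Its midsection values were 62.1, 58.3, 49.4 and 64 CPM at limiting phosphate and 50.5, 62.5, 78.2 and 79.1 CPM at sufficient phosphate. Tips spread more than midsections: 4 of 8 tips lay below every midsection, and 1 lay above all of them.

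ETR2, the third member of subfamily I, was scarce. It had 0, 19.9, 16.1 and 3.76 CPM in limiting tips and 2.56, 13.0, 8.26 and 0.783 CPM in sufficient tips. The count of 0 came from a library in which 3 counts correspond to 0.594 CPM. In midsections ETR2 had 19.3, 14.8, 18.6 and 14.8 CPM at limiting phosphate and 9.74, 9.55, 3.72 and 32.6 CPM at sufficient phosphate. Limiting midsections were the tightest group, and 3 of 8 tips lay below every midsection.

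Of subfamily II, ETR4, a receptor whose reduction is known to bring ripening forward, differed most between positions. It had 24.6, 42.2, 33.9 and 36.1 CPM in limiting tips, against 9.48, 17.1, 8.24 and 10.7 CPM in limiting midsections. These groups did not overlap. It had 14.1, 29.5, 12.7 and 42.3 CPM in sufficient tips, against 0.986, 14.7, 0.931 and 8.12 CPM in sufficient midsections. Here midsection replicate 2 lay above 2 of the tips. Sufficient midsection replicates 1 and 3 held 8 counts and 1 count of ETR4. In replicate 3, 3 counts correspond to 2.79 CPM. Over both phosphate levels, 6 of 8 tips lay above every midsection.

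ETR7, also of subfamily II, had the lowest spread relative to its mean of the 7 in M82, and its highest group was sufficient midsections. It had 41.8, 38.5, 53.5 and 49.1 CPM in limiting tips and 39.3, 28.8, 25.4 and 55.6 CPM in sufficient tips. In midsections it had 43.0, 38.8, 33.5 and 35.7 CPM at limiting phosphate, against 65.3, 63.9, 56.8 and 57.0 CPM at sufficient phosphate. Every sufficient midsection lay above every other M82 library. Among the 21 pairs of M82 groups that are neighbours in the order of a receptor's means, 20 overlapped in range. The exception was ETR7 between sufficient midsections and limiting tips. This count was not made for other genes, so it says nothing particular about the receptors.

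ETR5, of the same subfamily, had 35.4, 28.2, 40.9 and 45.9 CPM in limiting tips and 36.1, 31.0, 22.9 and 91.6 CPM in sufficient tips. Its midsection values were 38.2, 18.7, 26.5 and 41.3 CPM at limiting phosphate and 31.6, 38.9, 6.51 and 47.0 CPM at sufficient phosphate. The groups overlapped; the highest value was again that of sufficient tip replicate 4, and the lowest that of sufficient midsection replicate 3, the shallowest M82 library.

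ETR6, whose reduction is known to bring ripening forward too, was near the limit of detection in several libraries. It had 4.75, 15, 7.94 and 0.203 CPM in limiting tips, against 0.214, 1.89, 3.81 and 0 CPM in sufficient tips. Its midsection values were 5.37, 1.85, 4.70 and 11.3 CPM at limiting phosphate, against 0.123, 9.99, 0.931 and 0.125 CPM at sufficient phosphate. The groups overlapped. In sufficient midsections 3 of 4 libraries held 1 count of ETR6 each, and sufficient tip replicate 4 held none, in a library where 3 counts correspond to 2.35 CPM.

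Position was tested first, as tip over midsection with all 16 M82 libraries in 1 fit. A gene is called where its adjusted p is under 0.05 (edgeR quasi-likelihood test, Benjamini-Hochberg adjustment over the 18275 genes tested). At sufficient phosphate ETR4 was 3.76-fold higher in tips than in midsections (95% interval 1.42 to 9.97), a log2 fold change of 1.91 ± 0.69 (SE) with an adjusted p of 0.0372. It was the only receptor called, 1 of 7, where 27.3% of all genes were called and 13.7% were called as higher in tips. A count of 1 in 7 is below the 27.3% and close to the 13.7%, so it describes ETR4 and says nothing particular about the family. The call was easily lost when 1 library was left out. It was lost without sufficient tip replicate 2 or 4, and without sufficient midsection replicate 1, 3 or 4. The adjusted p then lay between 0.0563 and 0.113, with log2 fold changes of 1.46 to 2.03. In an edgeR fit of only the 8 sufficient libraries the adjusted p was 0.158. ETR4 was called in the remaining 9 of 15 alternatives.

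For the other 6 receptors the log2 fold changes at sufficient phosphate were -0.31 ± 0.40 for ETR1, -1.15 ± 0.95 for ETR2, 0.31 ± 0.35 for NR, 0.51 ± 0.49 for ETR5, -0.97 ± 1.39 for ETR6 and -0.72 ± 0.35 for ETR7. None of these passed the threshold. ETR7 came nearest, at an adjusted p of 0.137 and an interval of -1.44 to 0.01. It was called with limma-voom (-0.99, adjusted p = 0.00738) and without sufficient tip replicate 4 (-1.01, edgeR adjusted p = 0.0249), the fit in which ETR4 was not called. Limma-voom called 6154 genes in all, against 4992 in the reported fit. The tips and midsections of ETR7 did not overlap, which held for 1 of 7 receptors and for 24.3% of all genes. The median log2 fold change was -0.31 over the receptors and -0.02 over all genes tested.

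At limiting phosphate the ETR4 difference had the same direction and a similar size, 3.00-fold with an interval of 1.16 to 7.76, but an adjusted p of 0.150 (edgeR; unadjusted p = 0.025, log2 fold change 1.58 ± 0.67). No receptor was called, where 10.4% of all genes were. ETR4 was the only receptor with an unadjusted p under 0.05. It was also the only one whose groups did not overlap, against 23.5% of all genes. DESeq2 called 0 receptors and limma-voom called 1, ETR4, at an adjusted p of 0.0142. The fit of only the 8 limiting libraries also called ETR4, at 0.00596. More of all genes were called there too, 3157 with limma-voom and 3127 in the fit of 8 libraries, against 1908 in the reported fit. The remaining log2 fold changes were -0.50 ± 0.40 for ETR1, -0.77 ± 0.93 for ETR2, -0.03 ± 0.35 for NR, 0.27 ± 0.49 for ETR5, 0.26 ± 1.33 for ETR6 and 0.28 ± 0.35 for ETR7. For NR the interval ran from -0.74 to 0.68 on the log2 scale.

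**Figure D2:**
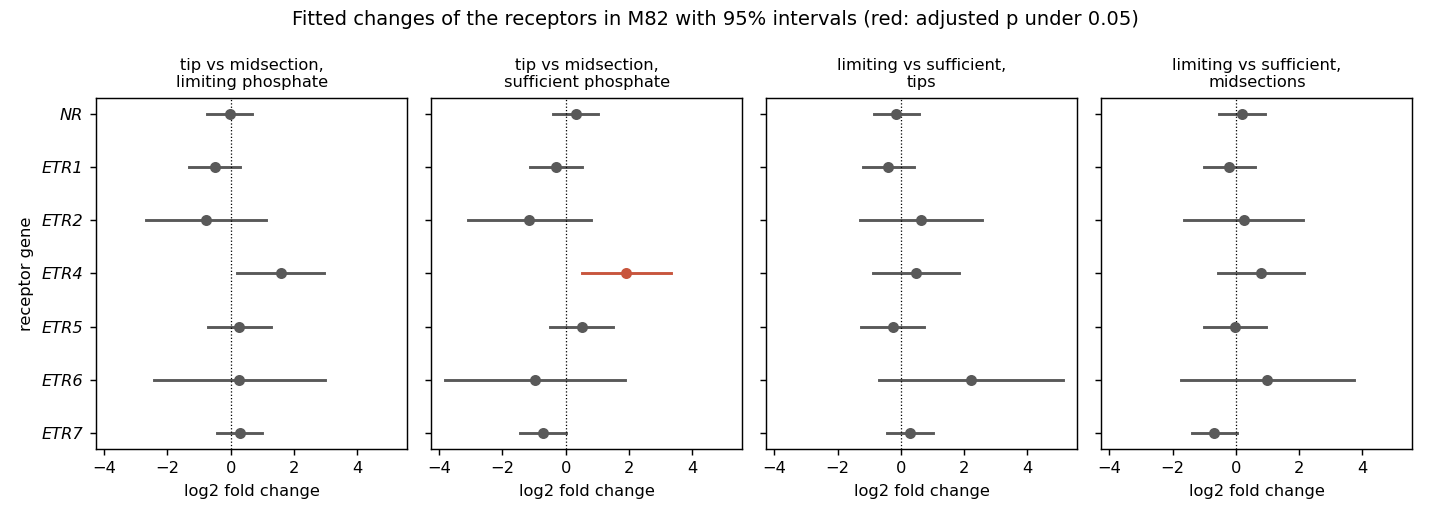
Log2 fold changes of the 7 receptors in M82 with 95% intervals from edgeR, for tip over midsection at each phosphate level and for limiting over sufficient phosphate at each position. ETR4 lies above 0 in both position comparisons, at 1.58 and 1.91, and the widest intervals are those of ETR6.

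Phosphate supply changed no receptor past the threshold in M82. In tips, limiting over sufficient, 0 of 7 receptors were called, where 1.42% of all genes were called. None had an unadjusted p under 0.05, and DESeq2 and limma-voom also called 0. The log2 fold changes were -0.40 ± 0.40 for ETR1, 0.63 ± 0.94 for ETR2, -0.14 ± 0.35 for NR, 0.48 ± 0.66 for ETR4, -0.26 ± 0.49 for ETR5, 2.23 ± 1.43 for ETR6 and 0.30 ± 0.35 for ETR7. The lowest adjusted p was 0.649, for ETR6, whose interval of -0.68 to 5.14 leaves room for a much higher level at limiting phosphate and for a moderately lower one. NR was bounded more narrowly, between -0.86 and 0.57. No receptor had groups that did not overlap, which held for 6.23% of all genes.

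In midsections, limiting over sufficient, again 0 of 7 receptors were called by edgeR, with 0 at an unadjusted p under 0.05 and 0 by DESeq2 or limma-voom. Of all genes, 1.43% were called, 261 genes, and 119 without limiting midsection replicate 3. ETR7 averaged 37.7 ± 4.11 CPM in limiting midsections and 60.8 ± 4.52 CPM in sufficient midsections (SD, n = 4 each), with no overlap. Its log2 fold change was -0.69 ± 0.35, with an interval of -1.40 to 0.03 and an adjusted p of 0.485 (unadjusted p = 0.0584). It was 1 of 7 receptors without overlap, against 10.8% of all genes. The other log2 fold changes were -0.21 ± 0.40 for ETR1, 0.26 ± 0.93 for ETR2, 0.20 ± 0.35 for NR, 0.80 ± 0.67 for ETR4, -0.02 ± 0.49 for ETR5 and 1.00 ± 1.34 for ETR6. ETR6 in limiting midsections had 14 to 64 counts in every library, against a single count in 3 of 4 sufficient midsections and 90 counts in the other.

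Whether the phosphate response differed between positions was tested as an interaction, tip response minus midsection response. Of the receptors 0 of 7 were called by edgeR, 0 had an unadjusted p under 0.05, and DESeq2 and limma-voom called 0; 0.969% of all genes were called. The largest departure relative to its error was that of ETR7, 0.99 ± 0.50 on the log2 scale, with an interval of -0.02 to 2.01 and an adjusted p of 0.435. The 7 estimates ranged from -0.34 to 1.23.

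Expressed as shares of the summed receptor level, which do not depend on library size, ETR4 took 14.3 ± 2.49% in limiting tips and 9.87 ± 2.45% in sufficient tips, against 5.09 ± 1.95% in limiting midsections and 2.54 ± 2.78% in sufficient midsections (SD, n = 4 each). At either phosphate level the ETR4 shares of tips and midsections did not overlap. They were 12.1 to 17.5% against 3.78 to 7.98% at limiting phosphate, and 7.78 to 12.8% against 0.392 to 6.27% at sufficient phosphate. The sufficient midsection shares of 0.392% and 0.463% rest on 8 counts and 1 count of ETR4. In CPM the sufficient groups overlapped. ETR7 took 25.7% in sufficient midsections and between 16.1% and 19.3% on average in the other groups. NR took 27.0%, 29.7%, 28.7% and 23.7% on average in limiting tips, sufficient tips, limiting midsections and sufficient midsections. ETR1 took 16.7%, 22.5%, 25.9% and 28.8% in the same groups. Subfamily I together took 47.6 ± 3.06% in limiting tips and 62.0 ± 4.12% in limiting midsections, without overlap, and 55.3 ± 5.81% in sufficient tips and 58.0 ± 9.32% in sufficient midsections, which overlapped. Shares sum to a whole, so a higher share of one receptor lowers the others, and no test was run on them. Non-overlap of shares has no background from other genes here. In CPM, tips and midsections did not overlap for 23.5% of all genes at limiting phosphate and 24.3% at sufficient phosphate.

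**Figure D3:**
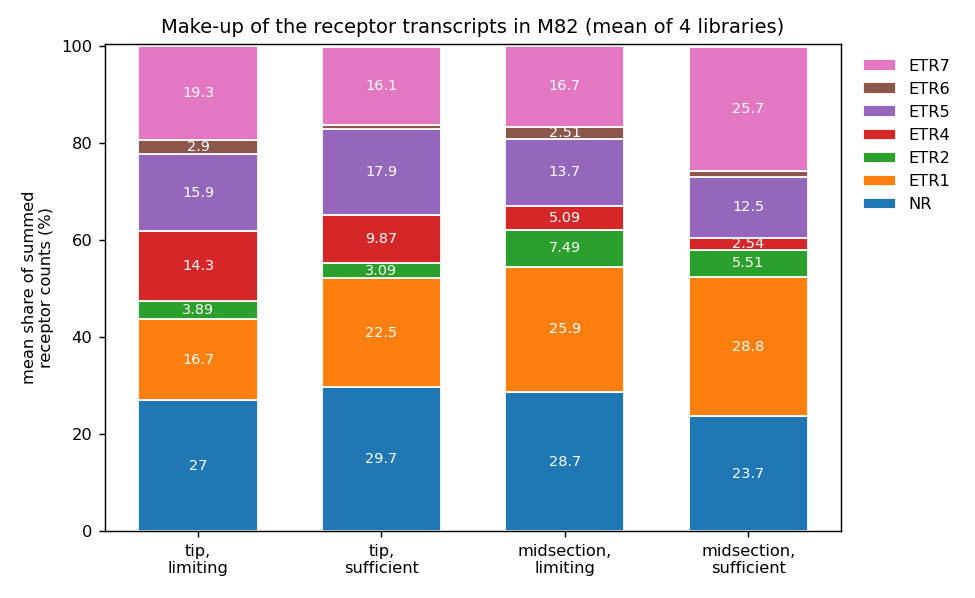
Mean share of each receptor in the summed receptor level of M82, in percent, for the 4 groups of 4 libraries. ETR4 takes 14.3% and 9.87% in limiting and sufficient tips, and 5.09% and 2.54% in limiting and sufficient midsections.

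Levels of the receptors were correlated in pairs, without a background from pairs of other genes. Across the 16 M82 libraries the highest correlation of log2 CPM between 2 receptors was that of ETR4 and ETR5 (Pearson r = 0.585, Spearman rho = 0.303), and the lowest was that of ETR6 and ETR7 (r = -0.373). The libraries share groups and differ in depth, so these values describe the data only. Among the other 18274 genes tested, those most like NR were Solyc02g089230.3.1 (r = 0.799) and Solyc05g055450.3.1 (r = 0.795). Those most like ETR1 were Solyc01g107360.3.1 (r = 0.894) and Solyc03g118820.3.1 (r = 0.888), and those most like ETR7 were Solyc11g011225.1.1 (r = 0.841) and Solyc02g069570.3.1 (r = 0.808).

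In Pennellii, NR was again the receptor with the highest mean, 75.5 CPM over 11 libraries, and the highest in 7 of them. ETR1 averaged 45.2 CPM, ETR4 33.3, ETR5 30.5, ETR7 17.1, ETR6 9.25 and ETR2 5.76. Ranges of neighbours overlapped in this order too. Pennellii reads were mapped to M82, per the name of the deposited table, so reads with too many differences to M82 may be missing, and no levels are compared across species. Several Pennellii tips held few receptor counts. Limiting tip replicate 2 had no count of 4 of the 7 receptors and a summed level of 23.7 CPM, although the library held 1529463 counts and 13831 genes with a count. The summed level reached 414 CPM in limiting tip replicate 1, the deepest Pennellii tip library.

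**Figure D4:**
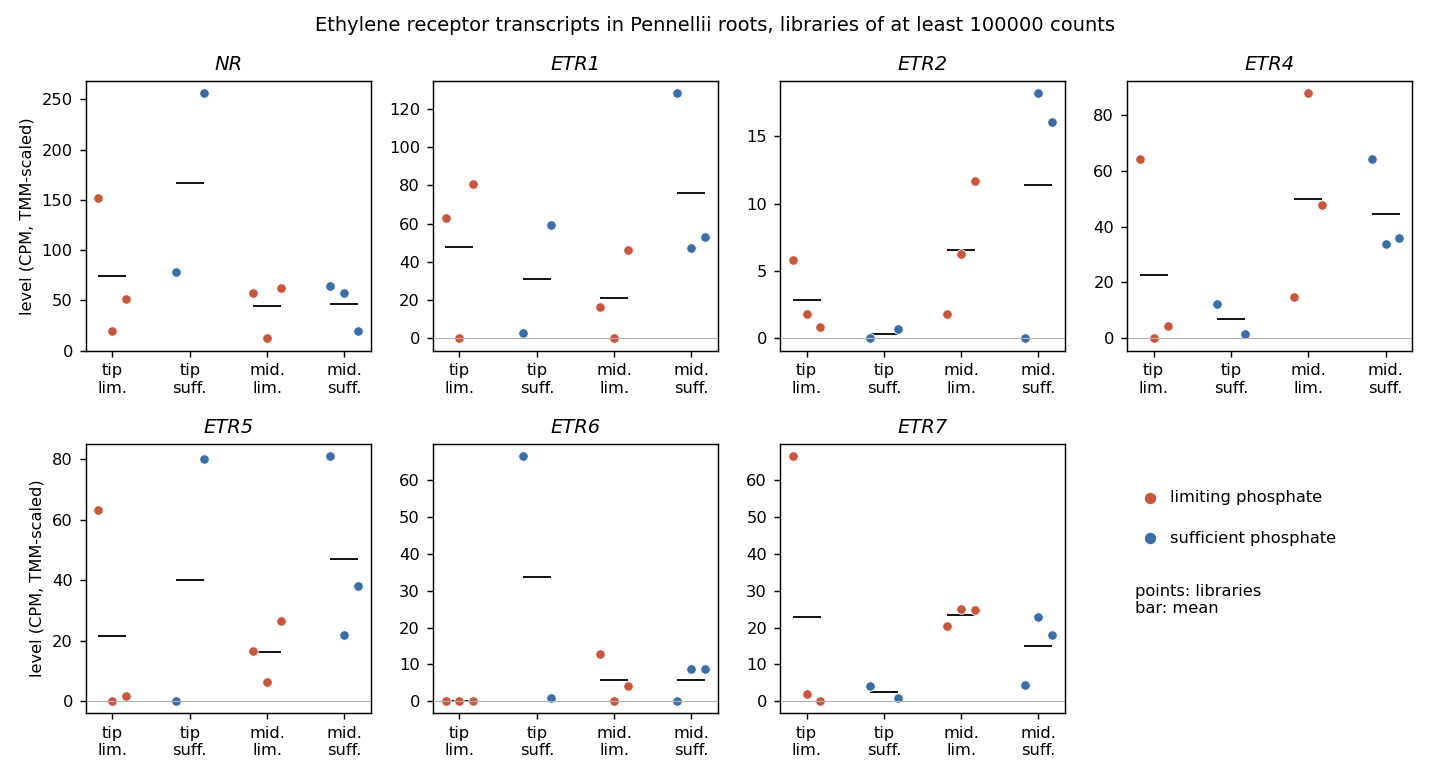
Levels of the 7 receptors in the 11 Pennellii libraries of the reported fit, in CPM on linear axes that differ between panels. Points are libraries and bars group means (n = 3, 2, 3 and 3); ETR4 lies below 14.8 CPM, the lowest midsection value, in 4 of 5 tips.

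In Pennellii, ETR4 was lower in most tips than in midsections, the reverse of its order in M82. It had 64.1, 0 and 4.33 CPM in limiting tips and 12.3 and 1.46 CPM in sufficient tips. The midsections had 14.8, 87.6 and 47.7 CPM at limiting phosphate and 64, 33.7 and 35.9 CPM at sufficient phosphate. Thus 4 of 5 tips lay below every midsection, and the exception, limiting tip replicate 1, was the deepest of the tips. Some of these levels rest on few counts: 87.6 CPM stood for 14 counts and 14.8 CPM for 8.

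For tip over midsection, averaged over both phosphate levels, the Pennellii log2 fold change of ETR4 was -1.90 ± 1.33, with an adjusted p of 0.693. Of the receptors 0 of 7 were called by edgeR, 0 had an unadjusted p under 0.05, and DESeq2 and limma-voom called 0. Of the 15485 genes tested, 0.342% were called, 53 genes, and 1 without sufficient tip replicate 3. ETR2 stood at -2.99 ± 1.84 (adjusted p = 0.623) and NR at 1.28 ± 0.96 (adjusted p = 0.723). The median over all genes was -0.16 and that over the receptors -1.35.

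NR in Pennellii had 152, 20.0 and 51.9 CPM in limiting tips and 77.9 and 256 CPM in sufficient tips. Its midsections had 57.2, 12.5 and 62.7 CPM at limiting phosphate and 64, 57.1 and 19.3 CPM at sufficient phosphate. Of the 5 tips, 3 lay above every midsection. ETR2 had 5.79, 1.82 and 0.865 CPM in limiting tips, against 0 and 0.729 CPM in sufficient tips, and 0 to 18.2 CPM in the 6 midsections. ETR2 thus stood at 1 to 30 counts per library in limiting tips. ETR1 had 62.9, 0 and 80.5 CPM in limiting tips and 3.07 and 59.0 CPM in sufficient tips, which overlapped. ETR5 ranged from 0 to 80.1 CPM in tips and from 6.26 to 81.1 CPM in midsections. ETR7 ranged from 0 to 66.6 CPM in tips, with 4 of 5 below every midsection, and from 4.27 to 25.0 CPM in midsections.

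Phosphate in Pennellii tips gave 0 called receptors of 7 by edgeR and 0 by limma-voom, where 0.0775% of all genes were called, 12 genes, and 1 without sufficient tip replicate 1. DESeq2 called 1, ETR6, the only receptor with an unadjusted p under 0.05 in edgeR. By DESeq2, 294 of all genes were called. ETR6 had no count in the 3 limiting tips, against 66.6 and 0.729 CPM in the 2 sufficient tips. Those 2 values stood for 65 counts and 1 count. With a floor of 3 counts for all limiting tips together, ETR6 was at least 74.8-fold lower there than in sufficient tips. The fitted log2 fold change of -9.84 ± 3.22 (edgeR adjusted p = 0.323) depends on how a zero group is fitted. In the midsections ETR6 had 12.9, 0 and 4.16 CPM at limiting phosphate and 0, 8.66 and 8.71 CPM at sufficient phosphate, which overlapped. The tip difference rests on 1 library: without sufficient tip replicate 1 a single count was left in sufficient tips, and no fold could be given. Without limiting tip replicate 1 the bound was 26.3-fold, and without sufficient tip replicate 3 it was 177-fold. ETR2 and ETR6 were the 2 receptors whose groups did not overlap, against 17.7% of all genes. In both the nearest libraries of the groups were separated by less than the depth can resolve: 1 count against 1 count for ETR2 (0.865 CPM in limiting tip replicate 4 and 0.729 CPM in sufficient tip replicate 3), and 0 counts against 1 count for ETR6. The 3-count floors of those 2 libraries were 2.6 and 2.19 CPM.

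In Pennellii midsections ETR1 had 16.6, 0 and 46.2 CPM at limiting phosphate, against 128, 47.3 and 53.0 CPM at sufficient phosphate. These groups did not overlap, which held for 1 of 7 receptors and for 9.3% of all genes. The log2 fold change of ETR1 was -1.76 ± 1.58 with an adjusted p of 1 (edgeR). Of the receptors 0 of 7 were called by edgeR, 0 had an unadjusted p under 0.05, and DESeq2 and limma-voom called 0, with 0.0323% of all genes called. In the interaction of phosphate and position 0 of 7 were called by each of the 3 tools, with 0.0646% of all genes called by edgeR; 1 receptor, ETR6, had an unadjusted p under 0.05.

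The species were compared through their responses, Pennellii minus M82, in 1 fit of 27 libraries and 20557 genes. For position, ETR4 gave -3.68 ± 1.16 on the log2 scale, with an interval of -6.00 to -1.35 and an adjusted p of 0.0572, just short of the threshold. Within that fit the tip over midsection change of ETR4 was -1.85 ± 0.91 in Pennellii and 1.83 ± 0.71 in M82. By edgeR 0 of 7 receptors were called and 1, ETR4, had an unadjusted p under 0.05, where 3.85% of all genes were called. DESeq2 and limma-voom each called ETR4, with adjusted p of 0.0049 and 0.00602. The 3.85% is the edgeR share, so it is no background for the calls of the other tools. Of 27 edgeR fits that each left out 1 library, 2 called ETR4, and the adjusted p ran up to 0.146, without Pennellii sufficient tip replicate 3. The 2 were the fits without M82 sufficient midsection replicate 2 (-4.10, adjusted p = 0.0412) and without Pennellii limiting tip replicate 1 (-5.32, adjusted p = 0.00393), the libraries with the highest ETR4 of those groups. The sign was the same in all 27. The median over all genes was -0.54, and the receptors' median was -1.21.

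For the phosphate response in tips, 1 of 7 receptors was called, ETR6, where 0.817% of all genes were called and 0.365% were called with a lower response in Pennellii. Its fitted difference was -13.01 ± 3.21 (edgeR adjusted p = 0.0389), a value that rests on the Pennellii limiting tips without a count and is no measure of size. The levels behind it were those given above: 0 CPM in 3 Pennellii limiting tips, 66.6 and 0.729 CPM in Pennellii sufficient tips, 0.203 to 15 CPM in M82 limiting tips and 0 to 3.81 CPM in M82 sufficient tips. The call was lost in 9 of 13 fits that left out 1 library, among them the fit without Pennellii sufficient tip replicate 1 (adjusted p = 0.384), and with limma-voom (adjusted p = 0.237). For the phosphate response in midsections 0 of 7 receptors were called by edgeR, 0 had an unadjusted p under 0.05, and DESeq2 and limma-voom called 0, with 0.0827% of all genes called. The estimates ranged from -1.46 to 1.24.

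Over the 12 comparisons, 84 edgeR tests of receptors gave 2 calls, and 6 had an unadjusted p under 0.05. Among all genes tested, the share called ran from 0.0323% for phosphate in Pennellii midsections to 27.3% for M82 position at sufficient phosphate. The share with an unadjusted p under 0.05 ran from 3.53% to 37.9% in the same 2 comparisons. The totals are a tally and say nothing particular about the family.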

How the data were processed

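Estimated counts per gene, partly fractional, were deposited in a table for each species with 34843 genes. Per the submitters' processing notes, the tools were Bowtie 1.2.2, FastQC, limma and edgeR, without roles. The counting program, annotation and genome build were not given in the sources used here. Libraries were strand-specific and read as single reads of 50 bases, per the labels' protocols. All 32 columns were assigned by their codes.

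The estimated counts were rounded, scaled by TMM and filtered with filterByExpr (minimum count 10, minimum total 15). Tests used the quasi-likelihood F test of edgeR 4.0.16 in R 4.3.3 with robust dispersions and Benjamini-Hochberg adjustment over all genes tested: 18275 in M82, 15485 in Pennellii and 20557 in the fit of both. Standard errors are the size of the log2 fold change over the square root of F, and intervals are 95%. CPM use TMM-scaled library sizes, correlations log2 CPM with a prior count of 2. Pennellii columns that were identical or under 100000 counts were left out. A floor of 3 counts, and a fold set against it, covers only counting error, because the reads carry no molecular identifiers. The test was checked on simulated counts. These were drawn with dispersions fitted to these data, so the check cannot show how well the model suits the libraries.

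All 7 receptors are named in every comparison; further genes are named for likeness only, 2 for each of the 3 receptors with the highest M82 mean. The names of the 7 IDs come with the rule that defines the family. A RefSeq table of assembly SLM_r2.1 matched 0 of 34843 IDs but lists all 7 receptors by symbol or synonym on the chromosome that the ID gives. Lists of other ethylene signalling genes and of position markers could not be tied to IDs, so they are not reported. The members and lists were chosen with earlier results of these data known.

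Alternatives were DESeq2 1.42.0, limma-voom (limma 3.58.1), RLE scaling, a stricter filter (5 CPM in 4 libraries), no filter on low counts, a block for the replicate number, separate fits for the groups compared, other choices of Pennellii libraries, each library left out in turn and, for shares, unrounded counts.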

Additional observations from a re-analysis of the deposited data

Results flagged for a closer look

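Among 32 sets of 4 M82 values, those of the 7 receptors and of their sum in each group, 2 held a library far from the other 3, where chance gives about 1 in 20. NR in limiting tip replicate 4 stood at 43.8 CPM, with the other limiting tips at 67.9 to 72.1 CPM; without that library the NR difference between limiting tips and limiting midsections was 0.12 on the log2 scale, against -0.03 with it. ETR6 in sufficient midsection replicate 2 stood at 9.99 CPM, with the other sufficient midsections at 0.123 to 0.931 CPM; without it the ETR6 difference between sufficient tips and sufficient midsections was 2.47 on the log2 scale, against -0.97 with it. Neither difference was called by edgeR in either fit.

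The ETR6 response to phosphate in tips differed between the species in a test of the difference itself, Pennellii minus M82 (edgeR adjusted p = 0.0389). The fitted value of -13.01 on the log2 scale is no measure of size, since the Pennellii limiting tips held no count. The call was lost in 9 of 13 fits that left out 1 library, with limma-voom (adjusted p = 0.237) and with the replicate block (adjusted p = 0.132).

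Some Pennellii libraries outside the reported fit also held receptor counts. The identical pair, tip at limiting phosphate replicate 3 and midsection at sufficient phosphate replicate 1, held 11 receptor counts of 50571 each, and midsection at limiting phosphate replicate 3 held 8 of 38629.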

How the results depend on the processing

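The floor of 3 counts stood at 0.0947 CPM in the deepest M82 library and at 18.8 CPM in the shallowest Pennellii library of the fit. Same-numbered libraries had low correlations, but in some comparisons most were closest to their own number. Correlations of their deviations lay between -0.0315 and 0.0982 in M82, between 0.0692 and 0.112 in Pennellii midsections and at -0.0051 in Pennellii tips. In M82, 2 of 8 libraries were closest to their own number in position at sufficient phosphate and 7 of 8 in position at limiting phosphate. It was 5 of 8 for M82 phosphate in tips and 0 of 8 for M82 phosphate in midsections. For Pennellii it was 0 of 5 for phosphate in tips and 4 of 6 for phosphate in midsections. The reported fits did not use the replicate number.

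Without leaving out a library, 79 of 90 counts of called receptors stayed within 1.5 times. Position in M82 at sufficient phosphate gave 1 in the reported fit, 2 with limma-voom (ETR4, and ETR7 at -0.99) and 0 in a fit of only the groups compared. Position at limiting phosphate gave 0 in the reported fit and 1 with limma-voom and with only the groups compared. Phosphate in Pennellii tips gave 0 in the reported fit and 1 with DESeq2 (ETR6, -8.78). The species difference in position gave 0 in the reported fit and 1 with RLE scaling (ETR4, -3.83), DESeq2 (-3.85), limma-voom (-5.08) and the replicate block (-5.79, adjusted p = 0.0206). The species difference in the tip response gave 1 in the reported fit, 0 with limma-voom (ETR6, -6.60) and 0 with the replicate block (-12.87, adjusted p = 0.132). The cause was not tested.

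Leaving out each library gave 0 to 1 called receptors for position in M82 at sufficient phosphate (ETR7 in place of ETR4 without tip replicate 4), 0 to 2 for the species difference in position and 0 to 1 for that in the tip response. In the other 9 comparisons it gave 0.

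Of the log2 fold changes, those that changed sign were all uncalled. With limma-voom they were ETR5 at -0.09 and ETR6 at 0.50 for position at sufficient phosphate, ETR6 at -0.84 for position at limiting phosphate, and ETR2 at -1.25, NR at 0.09 and ETR5 at 0.22 for phosphate in tips. With the replicate block they were ETR6 at -1.21 for position at limiting phosphate and ETR5 at 0.06 for phosphate in midsections. Leaving out libraries gave -0.11 to 0.69 for NR, -0.14 to 0.76 for ETR5 and -1.80 to 2.47 for ETR6 in position at sufficient phosphate. It gave -0.15 to 0.12 for NR and -0.48 to 0.80 for ETR6 in position at limiting phosphate. It gave -0.30 to 0.22 for NR and -0.50 to 0.32 for ETR5 in the tip response, and -0.08 to 1.08 for ETR2 and -0.38 to 0.21 for ETR5 in the midsection response. ETR4 kept its direction in M82 position at sufficient phosphate in all 15 alternatives, with log2 fold changes of 1.46 to 2.74 and adjusted p of 0.00796 to 0.158, and was called in 9.

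ETR6 failed the filter with only the sufficient M82 libraries, as did ETR2 and ETR6 in the Pennellii fit with the identical columns included. Shares changed by less than their spread in all 28 recomputed from unrounded counts.

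The number of genes called among all tested moved by over 1.5 times with the tool, the setting or a library left out. In M82 it was 4992 in the reported fit and as few as 3272 for position at sufficient phosphate, 1908 and up to 3157 for position at limiting phosphate, 260 and 157 to 507 for phosphate in tips, 261 and 119 to 672 in midsections, and 177 and 100 to 514 for the interaction. In Pennellii it was 53 and 1 to 255 for position, 12 and 1 to 294 for phosphate in tips, 5 and 3 to 44 in midsections, and 10 and 0 to 43 for the interaction. Between species it was 792 and 438 to 1879 for position, 168 and 34 to 1453 for the tip response, and 17 and 8 to 152 for the midsection response.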
